A study of Mus musculus with 36 samples.

Results

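Cholesterol is made from acetyl-CoA in 2 stretches, and the 26 genes described here were chosen by name to cover both of them together with their regulation. They are 26 of the 56748 genes measured in every library. Acat2, Hmgcs1, Mvk, Pmvk, Mvd, Idi1, Fdps and Ggps1 encode enzymes of the mevalonate stretch, which turns acetyl-CoA into farnesyl and geranylgeranyl diphosphate. Fdft1, Sqle, Lss, Cyp51, Tm7sf2, Lbr, Msmo1, Nsdhl, Hsd17b7, Ebp, Sc5d and Dhcr7 encode the enzymes that join farnesyl units into squalene, close the ring and finish the sterol. Srebf2 encodes the transcription factor of the pathway, and Scap, Insig1 and Insig2 encode the sterol sensor that controls it. Together they are called the sensor genes here for short. Stard4 and Tmem97 encode sterol-binding proteins of transport. The rule itself used the gene names, and the genes were chosen with earlier results of these data known.

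The transcription factor SREBP2 is the product of Srebf2 and is made as a precursor in the membrane of the endoplasmic reticulum, where it is bound to the escort protein SCAP. When the membrane is rich in cholesterol, SCAP is held back by the INSIG proteins. When it is poor in cholesterol, SCAP carries SREBP2 to the Golgi apparatus, where proteases release the active factor, and the genes of the pathway are transcribed more. The liver is a main site of cholesterol synthesis, and adipocytes store much free cholesterol but make little of it.

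RNA was sequenced from epididymal visceral white adipose tissue (visWAT) and liver of the same 18 male C57BL/6J mice, 36 libraries in all. All mice carried loxP-flanked Mlkl, which encodes the pseudokinase of necroptosis. Mlkl Adi-KO mice (KO) also carried a Cre transgene driven in mature adipocytes, and their WT littermates had no Cre. Feeding with either normal chow (NCD) or high-fat food (HFD) began at an age of 16 weeks and lasted 16 weeks. Each genotype had 4 NCD mice and 5 HFD mice, and each mouse gave 1 library per tissue without pooling. Because Cre acts in adipocytes, Mlkl in whole visWAT also contains the RNA of other cells, and the gene was not targeted in liver. Levels are FPKM, read fragments divided by the gene's length in kilobases and by a scaled library size, and each library held between 20875463 and 30322171 reads on genes. Differences between groups were tested with limma on log2(FPKM + 1) across all genes with a mean of at least 0.5 FPKM, and a gene was called at a Benjamini-Hochberg adjusted p under 0.05. Fold values are ratios of mean FPKM.

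In visWAT, Mlkl lay between 1.96 and 2.72 FPKM in the 9 KO mice and between 3.91 and 6.28 FPKM in 8 of the 9 WT mice. It was at 2.29 FPKM in the library labelled WT NCD mouse 182, inside the range of the KO mice, so Mlkl goes against its label. The same library had a summed level of 8 adipocyte markers of 7858 FPKM, against 12133 to 19749 FPKM in the other 3 WT NCD mice. Without Cfd, the adipokine gene that made up much of it, this sum was 4372 FPKM in mouse 182 and 3773 to 5663 FPKM in the other 3. The library of WT NCD mouse 183 had 247986 FPKM of 5 seminal vesicle genes, or 17.5% of its reads, and mouse 182 had 327 FPKM. Counts of called genes and medians in visWAT that rest on these mice are therefore given with and without them, and the values of single mice show where they lie. Hepatocyte markers summed to between 39058 and 63820 FPKM in liver. They reached at most 97.5 FPKM in visWAT except in KO HFD mouse 156, with 718 FPKM.

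Promoter letters are shown because SREBP2 binds a sterol regulatory element, often beside a CCAAT box, and the members below are those with a window that fell most in WT liver on HFD, as given further on. RefSeq promoter windows of the build GRCm38.p6, which differs from the build GRCm39 of the expression files, were found for 22 of the 26 members. Each window held 250 bases before and 50 bases after a gene start, and 28 windows belonged to members. No window was found for Fdps, Fdft1, Sqle and Stard4. The 250 bases before the start of Hmgcs1 (chr13:119690101-119690350, plus strand), Mvd (chr8:122443423-122443672, minus strand), Idi1 (chr13:8885356-8885605, plus strand) and Cyp51 (chr5:4104698-4104947, minus strand) are printed 5′ to 3′ along the gene. Capitals mark TCACNCCAC, the letters of a sterol regulatory element, and CCAAT or its reverse complement ATTGG.
Hmgcs1: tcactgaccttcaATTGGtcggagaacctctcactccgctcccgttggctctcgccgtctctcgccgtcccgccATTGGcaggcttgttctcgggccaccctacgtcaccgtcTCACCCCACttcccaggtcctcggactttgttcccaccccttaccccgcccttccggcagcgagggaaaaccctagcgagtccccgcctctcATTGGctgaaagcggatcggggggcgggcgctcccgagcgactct
Mvd: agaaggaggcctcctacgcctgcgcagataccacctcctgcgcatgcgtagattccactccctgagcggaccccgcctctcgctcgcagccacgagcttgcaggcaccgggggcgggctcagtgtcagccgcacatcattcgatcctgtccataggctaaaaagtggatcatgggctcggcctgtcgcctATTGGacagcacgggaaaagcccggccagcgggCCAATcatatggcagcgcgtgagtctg
Idi1: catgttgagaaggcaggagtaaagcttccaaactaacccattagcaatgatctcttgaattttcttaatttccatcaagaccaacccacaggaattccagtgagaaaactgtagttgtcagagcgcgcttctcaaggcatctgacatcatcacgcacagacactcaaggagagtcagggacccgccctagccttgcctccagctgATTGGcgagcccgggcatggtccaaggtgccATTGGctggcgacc
Cyp51: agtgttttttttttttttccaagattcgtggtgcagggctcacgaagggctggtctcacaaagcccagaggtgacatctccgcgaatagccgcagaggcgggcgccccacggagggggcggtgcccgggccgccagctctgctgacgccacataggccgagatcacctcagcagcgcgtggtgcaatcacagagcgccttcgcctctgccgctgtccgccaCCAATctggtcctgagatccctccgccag

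TCACNCCAC was searched on both strands and was found in the window of 1 member, Hmgcs1, where it reads TCACCCCAC and begins 137 bases before the start. It was found in 1.242% of all 32851 windows, and the stricter TCACCCCAC in 0.551% of them. CCAAT on either strand was found in windows of 20 of the 22 members and in 71.43% of their windows, against 37.41% of all windows. Scap and Acat2 had none, and Mvk had the most with 5. In Hmgcs1 the matches of the 2 motifs do not overlap. A match describes letters in these windows and is not evidence of binding, and a window without a match says nothing about the factor.

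In liver, HFD lowered almost the whole pathway in WT mice. Of the 26 members, 24 were lower on HFD and 0 were higher, and the members that did not pass were Ggps1 and Tmem97. Over all 13330 genes tested, 12.1% were called lower. The median log2 fold change of the 26 members was -1.35, and that of all genes was -0.00. The ratio of NCD to HFD means ranged from 1.11 to 14.9 with a median of 2.74, and 18 members were at least 2-fold and 7 at least 4-fold lower. In 23 members every HFD mouse was below every NCD mouse, which held for 11.6% of all genes. Leaving out each mouse in turn gave 23 to 24 members called. The summed FPKM of the members ran from 1412 to 1876 in WT NCD mice and from 564 to 760 in WT HFD mice.

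Among the early enzymes, Hmgcs1, which condenses acetoacetyl-CoA with acetyl-CoA to HMG-CoA, had 97.7, 97.8, 107 and 178 FPKM in the 4 WT NCD livers and 15.4, 15.6, 15.7, 18.3 and 25.1 FPKM in the 5 WT HFD livers. The means were 120.1 ± 38.9 and 18.02 ± 4.16 FPKM (SD), a 6.66-fold difference with a log2 fold change of -2.65 (SE 0.20, limma adjusted p = 5.63e-05). The lowest NCD liver stood far above the highest HFD liver, which came from mouse 164. Pmvk, the second kinase of mevalonate, had 58.7, 66.9, 72.1 and 91.7 FPKM on NCD and 12.6, 13.98, 14.3, 15.8 and 19.1 FPKM on HFD. It fell by 2.18 on the log2 scale (SE 0.14, limma adjusted p = 2.79e-05), and the diets did not overlap.

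Mvd removes a carboxyl group to make isopentenyl diphosphate. It had 19.9, 22.7, 28.3 and 32.01 FPKM in WT NCD livers and 2.31, 2.36, 2.92, 3.07 and 5.11 FPKM in WT HFD livers, 8.16-fold lower in the mean (log2 fold change -2.70, SE 0.20, limma adjusted p = 4.34e-05). Idi1, the isomerase of that product, had 31.6, 36.04, 37.5 and 59.8 FPKM on NCD and 4.39, 4.43, 5.402, 5.402 and 6.55 FPKM on HFD, 7.88-fold lower (log2 fold change -2.73, SE 0.18, limma adjusted p = 2.79e-05). Both genes kept every HFD mouse below every NCD mouse. Idi1 has 5 pseudogene copies in the annotation, the highest at 16.2 FPKM in a library, so the share of its reads is uncertain.

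Acat2, the cytosolic thiolase of the first step, and Mvk, the first mevalonate kinase, fell less in WT liver. Their log2 fold changes were -1.20 (limma adjusted p = 0.000163) and -1.32 (limma adjusted p = 0.000135). Fdps, the synthase of farnesyl diphosphate, was listed at a low level, with means of 4.74 ± 1.401 FPKM on NCD and 1.66 ± 0.476 FPKM on HFD (log2 fold change -1.10, limma adjusted p = 0.00278). It lies over 2 predicted genes on the same strand that reach 20.4 FPKM, and its level is therefore uncertain. Ggps1 leads away from sterols to geranylgeranyl diphosphate. Its means were 2.76 ± 0.317 and 2.49 ± 0.187 FPKM, with a log2 fold change of -0.10 (SE 0.07, limma adjusted p = 0.324). In this stretch 7 of 8 members fell.

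All 12 enzymes from squalene to cholesterol were called lower in WT liver. Sqle, which oxidises squalene and is a rate-controlling step of the sterol stretch, had 22.1, 22.8, 28.5 and 29.4 FPKM in WT NCD livers and 0.866, 1.71, 1.72, 1.78 and 2.52 FPKM in WT HFD livers. Its means were 25.7 ± 3.76 and 1.72 ± 0.587 FPKM, 14.9-fold apart, the largest ratio among the members in WT liver (log2 fold change -3.31, SE 0.17, limma adjusted p = 7.93e-06). Cyp51, the lanosterol demethylase, had 49.9, 55.98, 60.6 and 85.9 FPKM on NCD and 8.85, 9.84, 9.95, 11.1 and 18.97 FPKM on HFD (log2 fold change -2.35, SE 0.22, limma adjusted p = 0.000147). Nsdhl, a dehydrogenase that helps to remove methyl groups from the ring, had 41.4, 45.3, 46.2 and 52.6 FPKM on NCD and 8.61, 8.66, 9.46, 11.8 and 14.7 FPKM on HFD (log2 fold change -2.05, SE 0.15, limma adjusted p = 4.34e-05). The two-sided exact permutation p of Sqle was 0.00794, the smallest that 5 against 4 mice allow. None of the 3 genes overlapped between the diets, and mouse 164 was the highest HFD mouse for Sqle and Cyp51.

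The other 9 enzymes of this stretch fell by less. Their log2 fold changes in WT liver ran from -1.66 for Lss, the cyclase that makes lanosterol, over -1.52 for Msmo1, -1.43 for Tm7sf2, -1.39 for Sc5d, -1.38 for Dhcr7, -1.19 for Fdft1 and -1.09 for Hsd17b7 to -0.61 for Lbr and -0.47 for Ebp. Tm7sf2 and Lbr both encode reductases of the same sterol double bond. They had means of 54.7 and 3.39 FPKM on NCD. Sc5d and Ebp, the late desaturase and isomerase, were with Insig1 the 3 members of the highest mean level in WT NCD liver, at 249 ± 25.6 and 144 ± 21.9 FPKM. Ebp was still at 103 FPKM on HFD, a 1.399-fold difference.

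**Figure D1:**
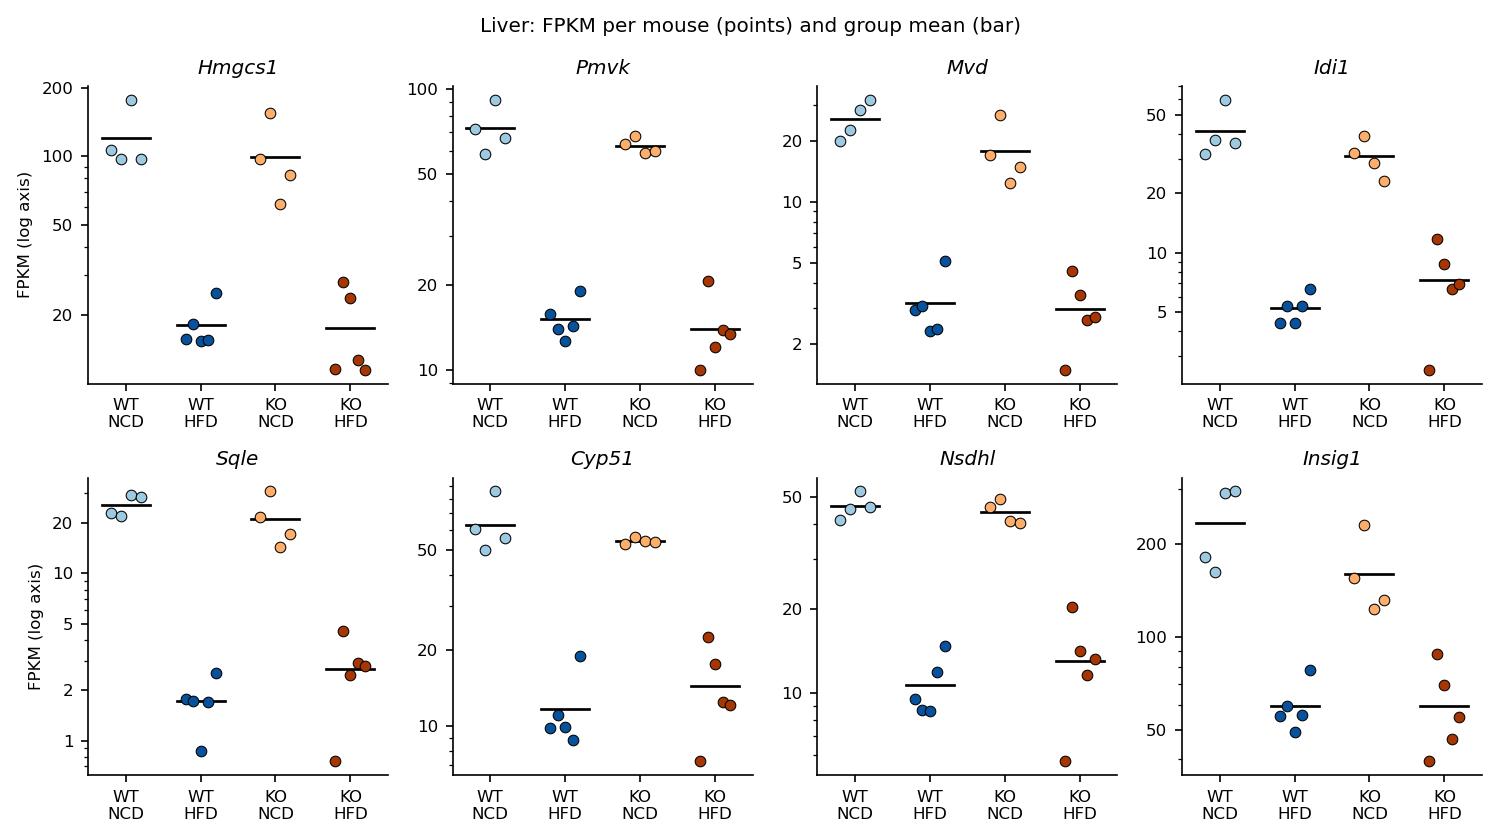
FPKM in liver on a log axis for 8 members, with 1 point per mouse, 4 mice per NCD group and 5 per HFD group, and a bar at each group mean. In each of the 8 panels every HFD mouse lies below every NCD mouse of the same genotype, and the KO NCD mean lies below the WT NCD mean, a difference that passed for none of them.

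The sensor genes fell with the enzymes in WT liver, 3 of the 4 by less than 1 on the log2 scale. Insig1, which retains SCAP and is itself an SREBP target, had 162, 181, 291 and 296 FPKM on NCD and 49.1, 55.2, 55.9, 59.6 and 78.2 FPKM on HFD (log2 fold change -1.91, SE 0.21, limma adjusted p = 0.000298). Insig2, its paralog, had 71.1, 106, 119 and 126 FPKM on NCD and 64.2, 67.1, 73.3, 74.8 and 79.96 FPKM on HFD (log2 fold change -0.52, SE 0.15, limma adjusted p = 0.036). The Insig2 groups overlapped through mouse 182, the lowest NCD mouse, and the call was lost in 7 of 9 fits that left out 1 mouse.

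Srebf2 itself had 13.2, 13.9, 14.6 and 15.1 FPKM in WT NCD livers and 7.86, 8.27, 8.98, 9.43 and 9.54 FPKM in WT HFD livers (log2 fold change -0.63, SE 0.07, limma adjusted p = 0.000273). Scap had 26.9, 28.8, 30.2 and 31.6 FPKM on NCD and 15.3, 15.9, 16.998, 17.5 and 17.9 FPKM on HFD (log2 fold change -0.78, SE 0.06, limma adjusted p = 7.96e-05). Neither overlapped between the diets. Stard4, a carrier of sterol between membranes, fell by 0.62 on the log2 scale (limma adjusted p = 0.00489). Tmem97, a sterol-binding protein also known as the sigma-2 receptor, had means of 83.2 ± 9.52 and 68.5 ± 9.58 FPKM (log2 fold change -0.28, SE 0.11, limma adjusted p = 0.0912).

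In KO liver the diet moved the same 24 members down. The 2 genes that did not pass were again Ggps1 and Tmem97, with log2 fold changes of 0.06 and -0.16. Of all 13149 genes tested, 10.3% were called lower. The median log2 fold change of the members was -1.11, 16 were at least 2-fold and 6 at least 4-fold lower, and 21 had every HFD mouse below every NCD mouse, against 9.89% of all genes. Between 20 and 23 members passed when each mouse was left out in turn. The summed FPKM of the members was 1184 to 1739 in KO NCD and 495 to 795 in KO HFD mice.

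Hmgcs1 had 61.8, 82.6, 97.5 and 156 FPKM in KO NCD livers and 11.5, 11.6, 12.7, 23.7 and 28.01 FPKM in KO HFD livers (log2 fold change -2.46, SE 0.33, limma adjusted p = 0.000899). Pmvk had 59.03, 60.2, 63.6 and 67.96 FPKM and 9.998, 12.1, 13.4, 13.9 and 20.7 FPKM (log2 fold change -2.12, SE 0.16, limma adjusted p = 5.77e-05). Mvd went from a mean of 17.7 ± 6.29 to 2.97 ± 1.14 FPKM (log2 fold change -2.23, limma adjusted p = 0.000394). In all 3 genes the diets were fully separated. Idi1 had 23.1, 28.5, 32.2 and 39.2 FPKM on NCD and 2.55, 6.55, 6.94, 8.82 and 11.8 FPKM on HFD (log2 fold change -2.02, SE 0.32, limma adjusted p = 0.00217). Sqle had 14.4, 17.2, 21.6 and 31.03 FPKM and 0.7499, 2.45, 2.78, 2.89 and 4.52 FPKM, a 7.87-fold difference in the means (log2 fold change -2.62, SE 0.31, limma adjusted p = 0.000497). The lowest value of both came from mouse 151 and the highest HFD value from mouse 152.

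Cyp51 in KO liver had 53.01, 53.8, 54.5 and 56.6 FPKM on NCD, a narrow range, and 7.25, 12.1, 12.5, 17.7 and 22.6 FPKM on HFD, a wider one that lay wholly below it (log2 fold change -1.93, SE 0.25, limma adjusted p = 0.000777). Nsdhl fell by 1.78 on the log2 scale (SE 0.27, limma adjusted p = 0.00176). Fdps, again uncertain, had means of 4.39 ± 1.53 and 1.03 ± 0.769 FPKM (log2 fold change -1.43, limma adjusted p = 0.0047). The other members that fell had log2 fold changes between -1.17 (Sc5d) and -0.21 (Ebp), the sensor genes left aside.

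Of the sensor genes in KO liver, Insig1 had 123, 131, 154 and 229.9 FPKM on NCD and 39.4, 46.5, 54.8, 69.8 and 87.9 FPKM on HFD (log2 fold change -1.42, SE 0.25, limma adjusted p = 0.00372). Insig2 had 83.4, 92.9, 95.1 and 180.3 FPKM on NCD and 32.9, 35.8, 44.8, 64.8 and 73.7 FPKM on HFD (log2 fold change -1.15, SE 0.29, limma adjusted p = 0.0192). Scap fell by 0.55 on the log2 scale (limma adjusted p = 0.00691). Srebf2 had 9.94, 11.1, 12.998 and 13.6 FPKM on NCD and 8.09, 8.59, 9.003, 9.95 and 10.6 FPKM on HFD, so the diets overlapped (log2 fold change -0.33, SE 0.10, limma adjusted p = 0.0482). The Srebf2 call was lost in 7 of 9 fits that left out 1 mouse and on the TPM scale.

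Within each group of livers, 1 mouse was often the highest for many members at once. Among WT HFD livers mouse 164 had the highest value of 21 of the 26 members and mouse 161 the lowest of 17. In KO HFD mice the highest was mouse 152 for 20 members and the lowest mouse 151 for 19. KO NCD mouse 179 was the highest in its group for 19 members, and mouse 197 the lowest for 14. WT NCD mouse 182 was the highest for 19 members, and 15 members were higher in its liver than in any other. The members share 1 library in each mouse, so these counts describe libraries and are not 26 separate measurements. Some genes listed as cell type markers also moved with diet in liver. The 8 adipocyte markers summed to 12.4 to 32.4 FPKM in WT NCD and 115 to 187 FPKM in WT HFD mice, and to 7.83 to 39.6 FPKM in KO NCD and 17.7 to 149 FPKM in KO HFD mice. Of these markers Cidec, Cfd, Plin4 and Lipe were tested, and all 4 were called higher in WT and 2, Cfd and Lipe, in KO mice. The other 4, Adipoq, Plin1, Lep and Retn, had group means of at most 0.549 FPKM in liver. Hepatocyte markers, 6 genes, summed to 53358 to 62637 FPKM in WT NCD and 39058 to 44538 FPKM in WT HFD mice. In KO mice these sums were 58614 to 63820 FPKM on NCD and 41700 to 51253 FPKM on HFD. Without Alb, the albumin gene, they were 15564 to 19827 and 13874 to 16401 FPKM in WT and 16876 to 19884 and 14444 to 17643 FPKM in KO mice. In each genotype 3 of the 6 were called lower, among them Alb and Tat, and 1 higher, Hpd at 0.35 in WT and 0.54 in KO mice on the log2 scale. Their part in the fall of the members was not tested, and in whole tissue fewer cells of a type and less RNA per cell cannot be told apart.

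**Figure D2:**
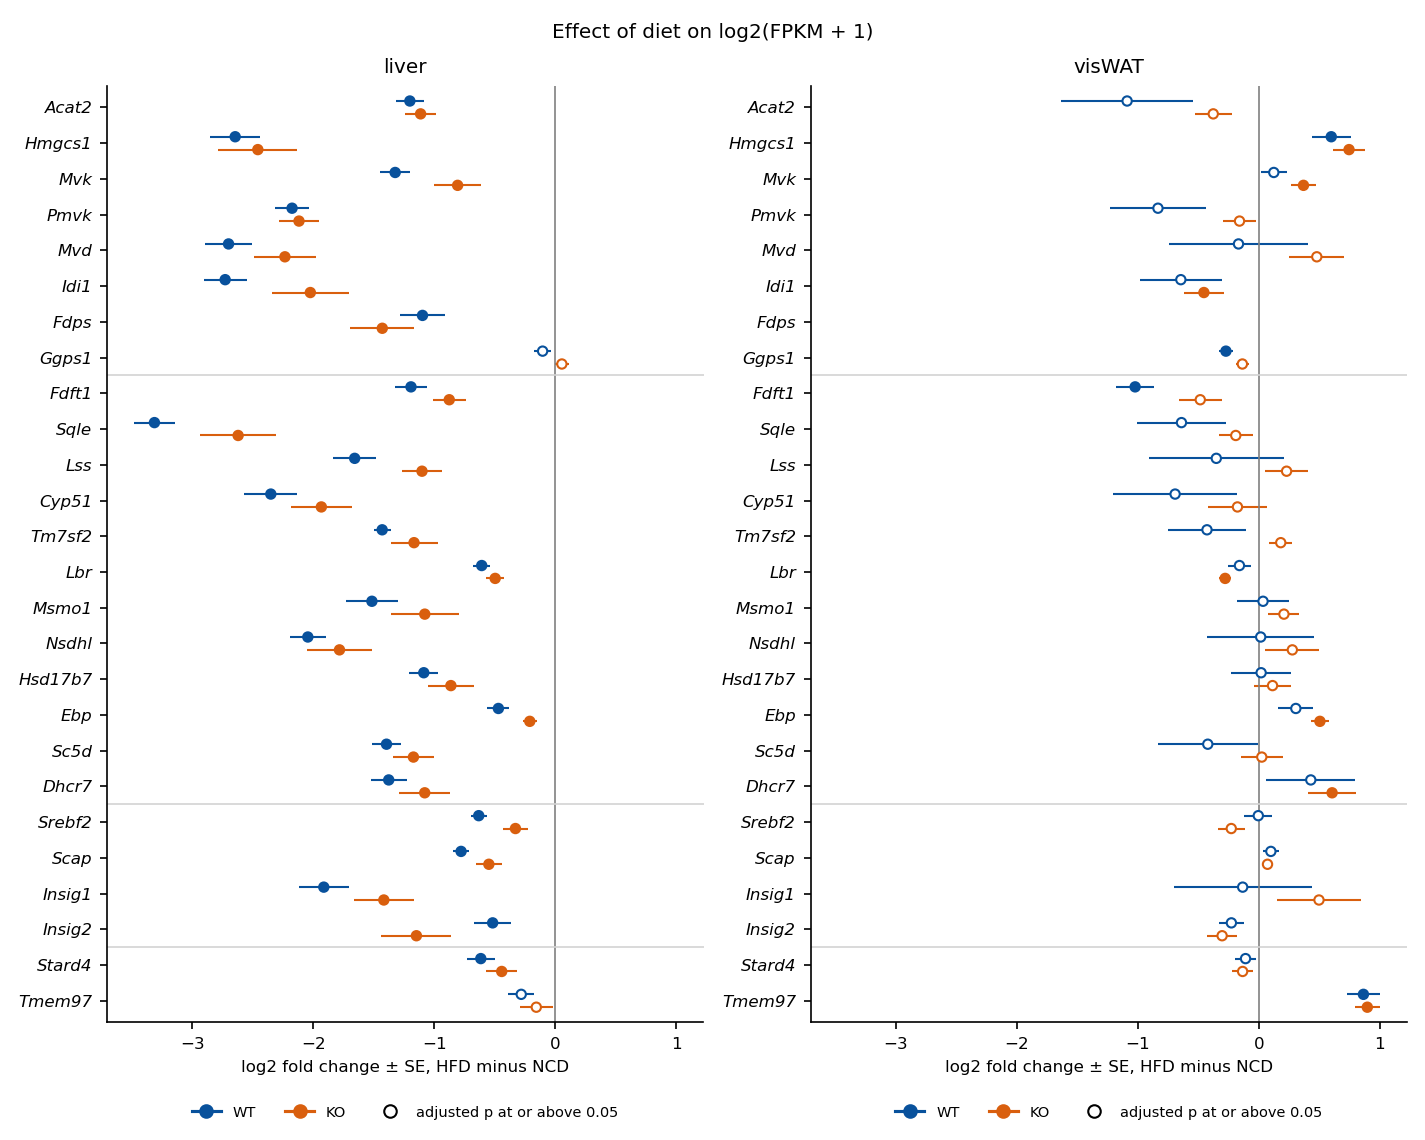
Difference between HFD and NCD on the log2(FPKM + 1) scale for each member in liver (left) and visWAT (right), with points for WT and KO mice, bars of 1 SE, and grey lines between the mevalonate stretch, the sterol stretch, the sensor genes and the transport genes. Filled points passed an adjusted p of 0.05. In liver 24 of 26 members are filled and lie left of 0 in both genotypes, and in visWAT most points are open and lie on both sides of 0, with Fdps not tested there.

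In visWAT the same diet gave no common fall. In WT mice 25 members could be tested, since Fdps was under the filter at means of 0.307 and 0.143 FPKM. Of these, 2 were called higher on HFD (Hmgcs1 and Tmem97) and 2 lower (Fdft1 and Ggps1). Among all 14161 genes tested, 21.9% were called higher and 15.8% lower, so the members' shares were below those of all genes. The members' median log2 fold change was -0.16 and that of all genes -0.01. The members' median turned to 0.09 without mice 182 and 183, with 16 of 25 members positive, and to 0.21 on the TPM scale, where that of all genes was 0.34. With edgeR and DESeq2 on all 9 mice it was -0.37 and -0.36, with 6 of 25 members positive in each, and that of all genes was -0.08 and -0.06. The summed FPKM of the members was 227 to 349 in 3 WT NCD mice, 1057 in WT NCD mouse 182, and 286 to 336 in WT HFD mice.

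Hmgcs1 had 18.7, 19.3, 24.1 and 33.5 FPKM in WT NCD and 32.9, 33.2, 36.4, 36.7 and 40.3 FPKM in WT HFD visWAT (log2 fold change 0.60, SE 0.16, limma adjusted p = 0.0163). The groups overlapped only through mouse 182, the highest NCD mouse. Tmem97 had 5.03, 5.74, 5.94 and 6.93 FPKM on NCD and 9.7005, 9.88, 10.8, 13.04 and 15.1 FPKM on HFD, without overlap (log2 fold change 0.87, SE 0.14, limma adjusted p = 0.000934). These 2 genes thus moved up with HFD in visWAT. In liver Hmgcs1 had fallen 6.66-fold and Tmem97 had not passed.

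Fdft1, the squalene synthase, had 11.2, 13.1, 15.7 and 21.1 FPKM in WT NCD and 5.83, 6.64, 6.92, 6.97 and 7.88 FPKM in WT HFD visWAT (log2 fold change -1.02, SE 0.16, limma adjusted p = 0.000893). It overlaps Ctsb on the opposite strand, a lysosomal protease gene with means of 227 FPKM in WT NCD and 769 FPKM in WT HFD visWAT, and whether the counting used the strand is not given in the sources used here. The value of Fdft1 is therefore uncertain. Ggps1 had 5.67, 6.04, 6.15 and 6.29 FPKM on NCD and 4.57, 4.705, 4.76, 4.93 and 5.19 FPKM on HFD (log2 fold change -0.27, SE 0.06, limma adjusted p = 0.00432). It overlaps Arid4b on the opposite strand, and its log2 fold change was 0.12 on the TPM scale.

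None of the 4 sensor genes passed in WT visWAT. Srebf2 had means of 7.98 ± 1.72 and 7.87 ± 0.622 FPKM (limma adjusted p = 0.986), and Scap had 5.505 ± 0.474 and 5.96 ± 0.271 FPKM (limma adjusted p = 0.254). Insig1 had 27.2, 52.8, 89.4 and 316 FPKM on NCD and 66.3, 66.9, 69.9, 81.3 and 82.8 FPKM on HFD (log2 fold change -0.13, SE 0.57, limma adjusted p = 0.877). Its large SE came with mouse 182, the highest of the NCD mice. Insig2 had 14.9 ± 2.56 and 12.5 ± 0.719 FPKM (log2 fold change -0.23, limma adjusted p = 0.125).

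The visWAT library of WT NCD mouse 182 stood apart in this pathway. In it 18 of the 26 members were above all 17 other visWAT libraries, 7 were within their range, and 1, Scap, was below it with 4.91 FPKM. The ratio to the median of the other 3 WT NCD mice ran from 0.839 to 10.4 with a median of 3.44. Acat2 was at 166 FPKM against 19.7 to 34.1 FPKM in the other 3 WT NCD mice, Mvd at 47.9 against 3.54 to 7.62 FPKM, Lss at 24.5 against 2.03 to 3.23 FPKM and Insig1 at 316 against 27.2 to 89.4 FPKM. The levels of Hmgcs1 and Tmem97 were within the range of the other libraries. Of 11 genes of fatty acid synthesis driven by SREBP1, 10 were also above all others in this library, among them Acly, the ATP citrate lyase, at 1407 FPKM. The low Mlkl and the adipocyte marker sum given above, low only with Cfd counted, belong to the same library. Their part in these levels was not tested.

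**Figure D3:**
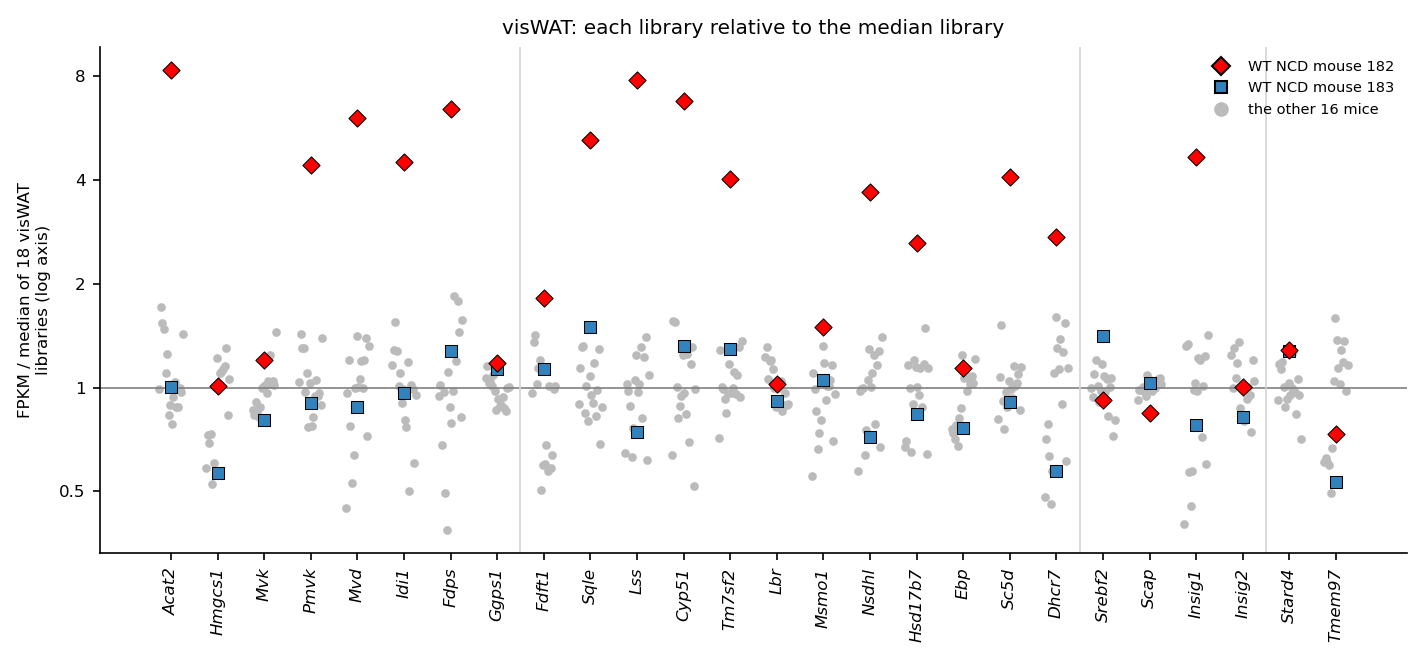
Level of each member in each visWAT library divided by the median of the 18 libraries, on a log axis, with mouse 182 as red diamonds, mouse 183 as blue squares and the other 16 mice as grey points. Mouse 182 lies above all other libraries for 18 of the 26 members, and mouse 183 is the highest for Srebf2.

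Without mice 182 and 183, the diet effect in WT visWAT rested on 2 NCD and 5 HFD mice, and 13 of 25 members were called, 8 higher and 5 lower. Of all 14015 genes tested in that fit, 27.8% were called higher and 24.2% lower. Dhcr7, the last reductase of the pathway, had a log2 fold change of 0.88 (SE 0.15, limma adjusted p = 0.00186), Hmgcs1 of 0.70 (limma adjusted p = 0.00127) and Mvd of 0.66 (limma adjusted p = 0.0453). Nsdhl, Ebp, Hsd17b7 and Mvk were the others called higher besides Tmem97, with log2 fold changes of 0.55, 0.46, 0.39 and 0.22. Called lower were Fdft1 (-0.87), Pmvk (-0.48), Insig2 (-0.36), Lbr (-0.31) and Ggps1 (-0.24). Without mouse 182 alone, 10 were called, 8 higher and 2 lower, where 23.8% and 18.8% of all 14196 genes were.

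In KO visWAT, which holds neither mouse 182 nor mouse 183, 5 of 25 members were called higher and 2 lower on HFD. The shares of all 14026 genes were 23.3% higher and 20.3% lower, and the median of the members was 0.07. KO NCD mouse 197, with 82.0 FPKM of seminal vesicle genes, was the lowest in its group for 18 of the 26 members, and without it the median was 0.02. Hmgcs1 had 17.4, 19.98, 22.8 and 24.3 FPKM on NCD and 27.5, 34.9, 37.4, 38.1 and 43.1 FPKM on HFD (log2 fold change 0.75, SE 0.14, limma adjusted p = 0.00262). Tmem97 had 4.68, 5.66, 5.75 and 6.33 FPKM on NCD and 9.25, 11.05, 11.2, 12.1 and 12.9 FPKM on HFD, 2.02-fold higher in the mean (log2 fold change 0.90, SE 0.10, limma adjusted p = 0.000398). These were the 2 members called in both genotypes in visWAT, and in both of them the KO groups did not overlap.

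Ebp, the sterol isomerase, had 11.7, 12.2, 13.4 and 13.999 FPKM in KO NCD and 17.6, 17.7, 18.3, 18.6 and 20.8 FPKM in KO HFD visWAT (log2 fold change 0.51, SE 0.07, limma adjusted p = 0.000915). Mvk had 9.27, 9.64, 9.88 and 10.2 FPKM on NCD and 11.5, 11.5, 11.8, 14.05 and 16.3 FPKM on HFD (log2 fold change 0.37, SE 0.10, limma adjusted p = 0.0172). Dhcr7 had 1.83, 2.28, 2.52 and 3.13 FPKM on NCD and 2.45, 3.57, 4.54, 5.07 and 6.14 FPKM on HFD, with overlap through mouse 156 (log2 fold change 0.61, SE 0.20, limma adjusted p = 0.0358). Ebp and Mvk were fully separated by diet.

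The 2 members called lower in KO visWAT were Idi1 and Lbr. Fdft1 and Ggps1, called lower in WT visWAT, did not pass in KO mice but were also lower on HFD without overlap. The highest HFD and lowest NCD values were 11.68 and 11.84 FPKM for Fdft1, again uncertain, and 5.33 and 5.37 FPKM for Ggps1. With Lbr they were the 3 members lower without overlap, as were 2565 of all 14026 genes, and the Idi1 groups overlapped. Idi1 had 2.72, 2.97, 3.45 and 4.19 FPKM on NCD and 1.35, 1.63, 2.57, 2.68 and 2.76 FPKM on HFD (log2 fold change -0.45, SE 0.16, limma adjusted p = 0.0492). Lbr, a sterol reductase that also anchors chromatin at the nuclear envelope, had 3.97, 4.23, 4.47 and 4.49 FPKM on NCD and 3.19, 3.32, 3.33, 3.35 and 3.61 FPKM on HFD (log2 fold change -0.28, SE 0.05, limma adjusted p = 0.00269). The Dhcr7 and Idi1 calls were each lost in 6 of 9 fits that left out 1 mouse, and 4 members were called without KO NCD mouse 197, 3 higher and 1 lower, where 18.7% and 16.2% of all genes were. Srebf2, Scap, Insig1 and Insig2 had log2 fold changes of -0.23, 0.07, 0.50 and -0.30, with limma adjusted p of 0.131, 0.188, 0.27 and 0.0795.

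**Figure D4:**
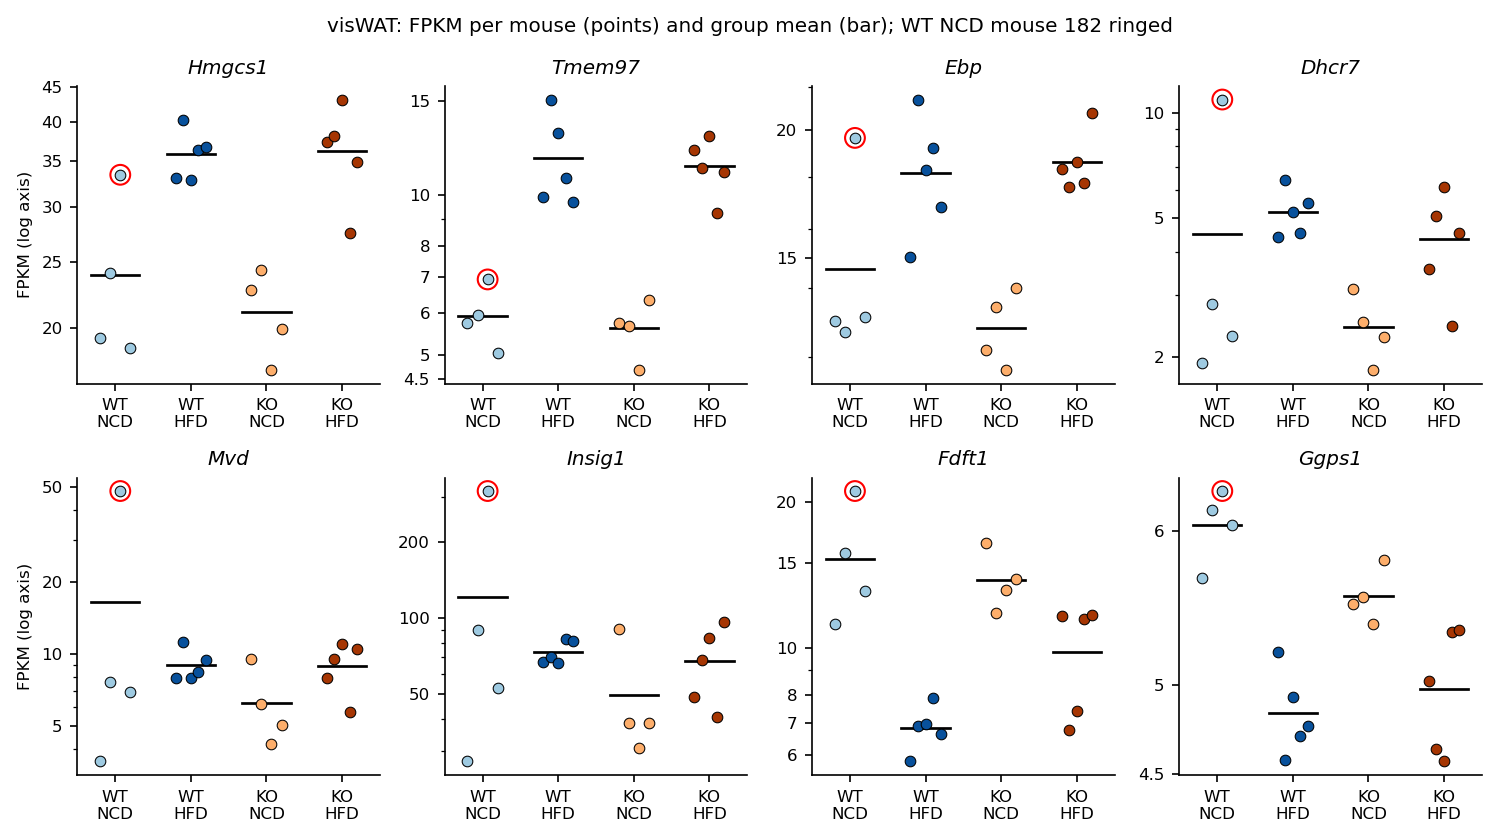
FPKM in visWAT on a log axis for 8 members, with 1 point per mouse, 4 mice per NCD group and 5 per HFD group, a bar at each group mean and a red ring around WT NCD mouse 182. Hmgcs1, Tmem97 and Ebp are higher in the 5 KO HFD mice than in the 4 KO NCD mice without overlap, and mouse 182 is the highest WT NCD point in all 8 panels.

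Levels of cell type markers in visWAT moved with diet as well. Macrophage markers, 9 genes, summed to 180.4 to 277 FPKM in WT NCD and 1744 to 2540 FPKM in WT HFD mice, with all 9 called higher, also without mice 182 and 183. In KO mice they summed to 239 to 416 FPKM on NCD and 647 to 2300 FPKM on HFD, with 7 called higher. Adipocyte markers summed to 7858 to 19749 FPKM in WT NCD and 3563 to 4622 FPKM in WT HFD mice, and to 15197 to 18685 FPKM in KO NCD and 4052 to 10118 FPKM in KO HFD mice. Much of this fall was in Cfd, with means of 9491 and 389 FPKM in WT and 11603 and 1844 FPKM in KO mice. Without Cfd the sums were 3773 to 5663 FPKM in WT NCD and 3359 to 4032 FPKM in WT HFD mice, and 4532 to 5729 FPKM in KO NCD and 3744 to 6931 FPKM in KO HFD mice, so the diets overlapped. Of the 8 genes, 5 were called lower and 1 higher in WT mice (6 lower and 1 higher without mice 182 and 183), and 3 lower and 2 higher in KO mice. Lep, the leptin gene, was called higher in both genotypes, at 2.18 and 1.64 on the log2 scale. The part of these shifts in the members' values was not tested.

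The diet effect was then compared between the tissues as a difference of log2 fold changes, liver minus visWAT, the same mice giving both. In WT mice 20 of 26 members were called with a lower value in liver, against 21.8% of all 14746 genes, and the median was -1.13. In KO mice 21 members were called lower in liver, against 21.2% of 14571 genes, and 1 was called higher, Ggps1, against 19.4% of genes. The KO median was -1.24. Fdft1 and Insig2 passed in neither genotype.

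Hmgcs1 had the largest such difference in both genotypes, at -3.25 in WT (SE 0.27, limma adjusted p = 1.11e-07) and -3.21 in KO mice (SE 0.38, limma adjusted p = 1.27e-05). Mvd differed by -2.53 and -2.72, Sqle by -2.68 and -2.43, and Nsdhl by -2.06 and -2.06 on the log2 scale in WT and KO mice. Cyp51 (-1.66 and -1.76) and Dhcr7 (-1.81 and -1.69) were called in both genotypes too. The WT call of Cyp51 was lost in 9 of 18 fits that left out 1 library. Idi1 differed by -2.09 in WT and Pmvk by -1.96 in KO mice.

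Of the sensor genes, Insig1 differed by -1.78 in WT (limma adjusted p = 0.0365) and -1.92 in KO mice (limma adjusted p = 0.00325). Its WT call was lost in 10 of 18 fits that left out 1 library. Scap differed by -0.88 (limma adjusted p = 1.23e-06) and -0.62 (limma adjusted p = 0.00078). For Srebf2 the difference was -0.63 in WT (limma adjusted p = 0.00173) and -0.10 in KO mice (limma adjusted p = 0.64). Insig2 differed by -0.29 and -0.85 (limma adjusted p = 0.255 and 0.0556). With the mouse as a block, the pairing of the tissues gave 21 members called lower in liver in WT, Lss being added, and 20 in KO mice, where Ggps1 and Lbr were lost. The shares of all genes in these fits were 20.2% and 21.1%. In WT mice 13 members were called lower in liver with edgeR, against 16.8% of all genes, and 12 with DESeq2 on recovered reads, against 19.5%. Without mice 182 and 183 limma called 22 lower, against 24.9% of genes, with a median of -1.45.

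Loss of Mlkl in adipocytes gave no called difference in any member, in either tissue and on either diet, with limma, edgeR or DESeq2. In HFD visWAT 0 of 25 members were called, as were 0.0215% of all genes, and 2 had an unadjusted p under 0.05, against 21.5% of all genes. Fdft1 had 5.83, 6.64, 6.92, 6.97 and 7.88 FPKM in WT and 6.76, 7.396, 11.5, 11.7 and 11.7 FPKM in KO mice (log2 fold change 0.43, unadjusted limma p = 0.0181, exact permutation p = 0.0635). Srebf2 had 7.25, 7.33, 7.902, 8.07 and 8.78 FPKM in WT and 5.41, 6.01, 6.19, 7.52 and 7.95 FPKM in KO mice (log2 fold change -0.23, unadjusted limma p = 0.0371, exact permutation p = 0.0873). Both overlapped, and 0 members were without overlap where 3.01% of all genes were. Scap, Insig1 and Insig2 had log2 fold changes of 0.02, -0.18 and 0.19.

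In NCD visWAT 0 of 25 members were called and 0 had an unadjusted p under 0.05, against 0% and 3.75% of all genes. None was without overlap, against 2.46% of genes. The median of the members was -0.25, with 22 of 25 lower in KO mice, and it was 0.03 without mice 182 and 183. Srebf2, Scap, Insig1 and Insig2 had log2 fold changes of -0.00, 0.04, -0.81 and 0.26, and without these mice 0.10, 0.03, -0.13 and 0.13. The lower median in KO mice on NCD was therefore not present without these mice.

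In HFD liver 0 of 26 members were called, as were 0.197% of all genes. An unadjusted p under 0.05 was reached by 4 members, against 12.6% of genes. Insig2 had 64.2, 67.1, 73.3, 74.8 and 79.96 FPKM in WT and 32.9, 35.8, 44.8, 64.8 and 73.7 FPKM in KO mice (log2 fold change -0.57, SE 0.21, unadjusted limma p = 0.0186, exact permutation p = 0.0556). Ggps1 had 2.27, 2.37, 2.46, 2.67 and 2.69999 FPKM in WT and 2.7997, 2.83, 2.86, 2.88 and 3.002 FPKM in KO mice (log2 fold change 0.15, unadjusted limma p = 0.0122, exact permutation p = 0.00794), the 1 member without overlap, where 2.62% of all genes had none. Mvk and Ebp had log2 fold changes of 0.35 and 0.10 (unadjusted limma p = 0.0435 and 0.0361, exact permutation p = 0.0635 and 0.0159). Srebf2, Scap and Insig1 had 0.06, 0.12 and -0.04.

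In NCD liver 0 of 26 members were called, against 0.00758% of all genes, and 2 had an unadjusted p under 0.05, against 4.35% of genes. Mvd had 19.9, 22.7, 28.3 and 32.01 FPKM in WT and 12.4, 14.9, 17.03 and 26.7 FPKM in KO mice (log2 fold change -0.54, unadjusted limma p = 0.0438, exact permutation p = 0.114). Srebf2 had 13.2, 13.9, 14.6 and 15.1 FPKM in WT and 9.94, 11.1, 12.998 and 13.6 FPKM in KO mice (log2 fold change -0.24, unadjusted limma p = 0.0391, exact permutation p = 0.0571). Both overlapped, 0 members were without overlap where 2.80% of all genes were, and the median of the members was -0.18 (-0.07 without mice 182 and 183). Scap, Insig1 and Insig2 had -0.11, -0.53 and 0.06.

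**Figure D5:**
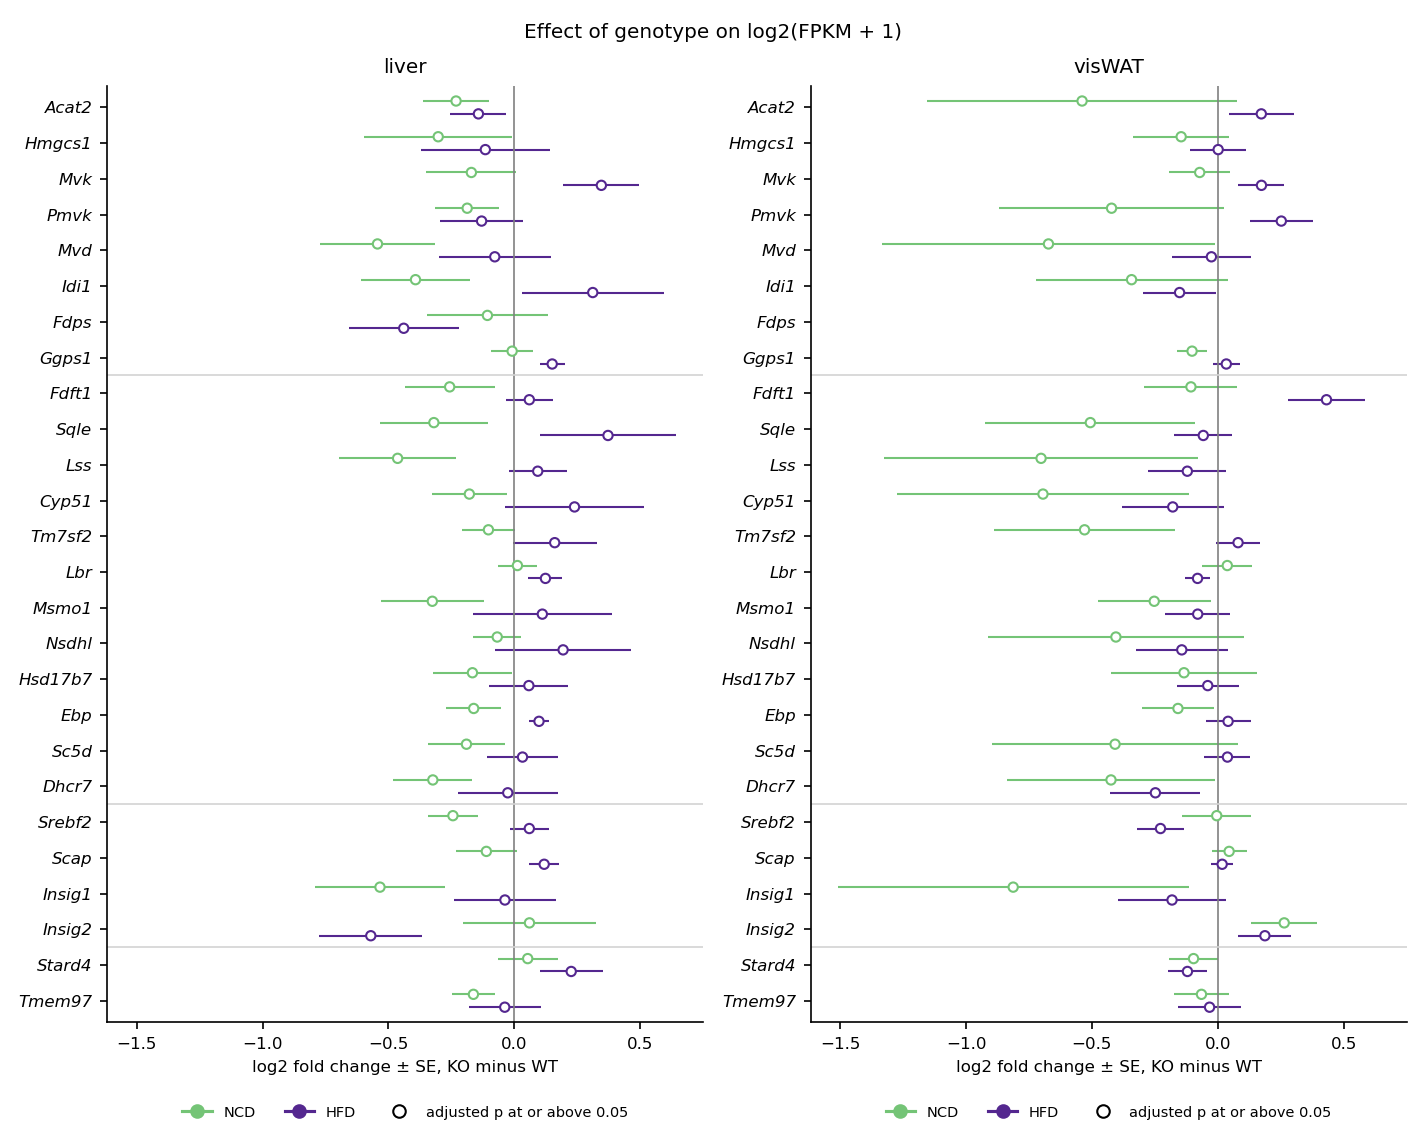
Difference between KO and WT on the log2(FPKM + 1) scale for each member in liver (left) and visWAT (right), with points for NCD and HFD, bars of 1 SE, and grey lines between the mevalonate stretch, the sterol stretch, the sensor genes and the transport genes. All points are open, since 0 members passed an adjusted p of 0.05, and the long bars in NCD visWAT go with mouse 182.

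A change of the genotype effect with diet was tested over the 18 libraries of each tissue. In visWAT 0 of 25 members were called, and 1, Fdft1, had an unadjusted p under 0.05 (difference 0.54, SE 0.25, limma adjusted p = 0.372). The shares of all genes were 0% and 13.2%. The difference was positive for 20 of 25 members with a median of 0.20, and the median was -0.05 without mice 182 and 183. In liver 0 of 26 members were called, against 0.0151% of genes. The members with an unadjusted p under 0.05 were Srebf2 (0.30, limma adjusted p = 0.724), Ebp (0.26, limma adjusted p = 0.719) and Lss (0.56, limma adjusted p = 0.809), 3 in all, against 6.12% of genes. The difference was positive for 24 of 26 members in liver, with a median of 0.26 where all genes had 0.00. Without mice 182 and 183 it was positive for 22 of 26, with a median of 0.16. The members share the same libraries, so these counts of positive members in either tissue are not separate measurements. Scap, Insig1 and Insig2 had differences of 0.23, 0.50 and -0.63 in liver. In visWAT those of Srebf2, Scap, Insig1 and Insig2 were -0.22, -0.03, 0.63 and -0.08.

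The 5 further lists of lipid genes were read against the shares of all genes called. In liver 13.2% of genes were called higher on HFD in WT and 11.9% in KO mice, and the shares called lower and those in visWAT are given above. Of 10 genes for the proteases, degradation factors and partners of SREBP processing, 10 were tested in liver, and 1 passed in each genotype: Spring1, which helps to activate the protease of SCAP-bound SREBP, rose by 0.48 in WT and 0.42 in KO liver on the log2 scale. A count of 1 of 10 is near the share of all genes. In visWAT 9 were tested, and 2 were lower in WT and 3 in KO mice, among them Spring1 at -0.31 in WT and Rnf139, a ubiquitin ligase gene, at -0.16 in KO mice on the log2 scale. Without mice 182 and 183, 3 were lower in WT visWAT.

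Of 13 genes that use farnesyl or geranylgeranyl groups outside sterols, 1 was higher and 1 lower in WT liver (Coq2 0.34 and Rabggtb -0.38), and 2 were higher and 1 lower in KO liver (Rabggta 0.27, Coq2 0.22 and Rabggtb -0.37), counts near or below the shares of all genes. In visWAT 1 was higher and 4 lower in WT mice, with Nus1 at 0.47, Pdss2 at -0.47 and Fnta at -0.39, and 3 were higher and 4 lower without mice 182 and 183. In KO visWAT 2 were higher and 2 lower. Coq2 and Pdss2 act in ubiquinone synthesis, Nus1 in dolichol synthesis, and Fnta and the Rabggt genes encode prenyltransferases.

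Of 11 genes of SREBP1 and fatty acid synthesis, 10 were lower and 0 higher in WT visWAT, and 11 were lower in KO visWAT. Acaca, the acetyl-CoA carboxylase, fell by 3.09 on the log2 scale in WT and by 2.57 in KO visWAT (limma adjusted p = 0.00111 and 0.00021). The median over the list was -2.09 in WT and -1.29 in KO visWAT. Without mice 182 and 183 all 11 were lower in WT visWAT, with a median of -1.74, and Acaca fell by 2.84. In liver 3 were higher and 7 lower in WT and 2 higher and 5 lower in KO mice, among them Acss2, the acetyl-CoA synthetase, at -2.08 and -1.78 and Thrsp, a lipogenic nuclear protein, at 1.95 and 1.83. The list's medians in liver were -0.96 and -0.78. The liver thus held called changes in both directions in that list, where the 26 members held 24 falls and no rise.

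Of 9 genes of sterol esterification, lysosomal release and oxysterol synthesis, 7 were tested in visWAT, and 5 were higher in WT and 4 in KO mice, with 0 lower. The WT counts were the same without mice 182 and 183. Nceh1, a cholesteryl ester hydrolase, rose by 3.22 and 2.12, Lipa, the lysosomal acid lipase, by 2.90 and 1.96, and Soat1, which esterifies cholesterol, by 2.56 and 1.56 on the log2 scale. The macrophage marker sums given above rose in the same mice, and their part was not tested. In liver Soat2, the hepatocyte form, fell by 0.69 in WT and by 0.90 in KO mice, and Npc2, which binds cholesterol in the lysosome, fell by 0.44 and by 0.42. Nceh1 rose by 0.86 in WT liver.

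Of 8 LXR targets and sterol efflux genes, 1 was higher and 3 lower in WT liver (Abca1 0.30, Abcg8 -0.50 and Abcg5 -0.37 among them), and 0 were called in KO liver. The difference of these diet effects between genotypes was called for none of them. In visWAT 6 were tested, with 2 higher in WT (Abcg1 2.08 and Nr1h3 0.34; 1, Abcg1, without mice 182 and 183) and 4 higher and 1 lower in KO mice (Abcg1 1.45, Nr1h3 0.39 and Abca1 -0.42 among them). Abcg1 and Abca1 export cholesterol to lipoproteins, Abcg5 with Abcg8 export it into bile, and Nr1h3 encodes LXR alpha. In the genotype comparisons and the genotype by diet interactions 0 genes of these 5 lists were called.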

How the data were processed

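Male mice of 2 genotypes and 2 diets gave 36 libraries of polyadenylated, paired-end RNA from visWAT and liver. Trimming was done by the authors with fastp, mapping to the build mm39 (GRCm39) with HISAT2 and counting with featureCounts (version 1.5.0-p3 per the submitters' processing notes). The strand setting, the annotation release and the handling of reads with several matches are not given in the sources used here. FPKM values of 56748 genes in each library were deposited by the authors. The deposited tables of the authors' comparisons hold raw counts for the genes they list, used here to find each library size, and the authors' fold changes and p-values, which were not used. A further 72 columns of values per sample were not used.

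FPKM were turned back into whole reads (100% of values, tolerance 0.01). Divided by the reads on genes, the library size behind FPKM was 1.01 to 1.40 in visWAT, lowest in WT NCD mice 182 and 183, and 0.737 to 0.812 in liver, which is a scaling between libraries. At 20875463 to 30322171 reads, genes of few reads are measured less precisely.

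Groups were taken from the labels. limma 3.58.1 (R 4.3.3) was run with its trend option on log2(FPKM + 1) of the groups compared, over genes with a mean of at least 0.5 FPKM, with Benjamini-Hochberg adjustment over all of them and a threshold of 0.05. Fold changes on this scale understate those of low genes. Interactions used the 18 libraries of a tissue or of a genotype. The alternatives tried were no filter, a pseudocount of 0.1, a mean of at least 1 FPKM, the TPM scale, edgeR 4.0.16 (quasi-likelihood test) and DESeq2 1.42.0 on the recovered reads, each library left out, mice 182 and 183 left out, all 18 libraries in 1 fit, and the mouse as a block. The diet fits in WT mice were also run on simulated counts with known fold changes, the same spread setting for every gene and no aberrant library. A least share of recovered genes was required of edgeR and DESeq2 but not of limma. The outcome is not given here.

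The mouse number in the labels pairs visWAT and liver of the same animal, and the correlation of the paired libraries' deviations from their group means ran from -0.05 to 0.22. The genes named are the members past the threshold, at most 8 by size, with Srebf2, Scap, Insig1 and Insig2 always given and up to 3 genes of each further list. The members and lists were chosen with earlier results of these data known.

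Marker lists not described above were lymphocyte (0 called in WT visWAT, 2 higher in KO visWAT, none tested in liver), mesothelium (0 called except 2 lower in KO visWAT) and epididymis (at most 2.87 FPKM summed in any library). Macrophage markers had 0 called in liver, at 31.9 to 129 FPKM summed.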

Additional observations from a re-analysis of the deposited data

Results flagged for a closer look

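In 13 of 208 groups of 4 or 5 mice, 1 mouse lay apart from the others by Dixon's criterion, which chance meets in about 1 in 20 groups. Of these, 7 were WT NCD mouse 182 in visWAT, with Mvk at 13.6, Idi1 at 12.2, Fdps at 0.816, Lss at 24.5, Hsd17b7 at 4.30, Ebp at 19.6 and Sc5d at 100.2 FPKM, each the highest of the 4. The same mouse was the highest in liver for Hmgcs1 at 178 FPKM. WT HFD mouse 164 was the highest in liver for Mvk at 6.11 and Cyp51 at 19.0 FPKM. The others were KO NCD mouse 179 for Insig2 in liver at 180.3 FPKM, KO HFD mouse 156 for Scap in liver at 20.4 FPKM and KO HFD mouse 157 for Acat2 in visWAT at 28.4 FPKM.

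The diet effect differed between liver and visWAT for 20 members in WT and 22 in KO mice by the limma interaction test. In WT mice the calls of Insig1 and Cyp51 were lost in 10 and 9 of 18 fits that left out 1 library. The differences in WT mice, liver minus visWAT on the log2 scale, were -3.25 for Hmgcs1, -2.68 for Sqle, -2.53 for Mvd, -2.09 for Idi1, -2.06 for Nsdhl, -1.81 for Dhcr7, -1.78 for Insig1, -1.66 for Cyp51, -0.88 for Scap and -0.63 for Srebf2. In KO mice they were -3.21 for Hmgcs1, -2.72 for Mvd, -2.43 for Sqle, -2.06 for Nsdhl, -1.96 for Pmvk, -1.92 for Insig1, -1.76 for Cyp51, -1.69 for Dhcr7 and -0.62 for Scap.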

How the results depend on the processing

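Of the counts of members called, 225 of those under an alternative stayed within 1.5 times the reported count and 9 did not. For WT visWAT and diet, in place of 4, these were 7 with edgeR (2 higher, 5 lower) and 8 with DESeq2 (2 higher, 6 lower). Of all 14161 genes, edgeR called 2693 higher and 3169 lower, and DESeq2 3057 and 3229. They were 7 in the fit of all 18 libraries (3 higher, 4 lower) and 10 without mouse 182 (8 higher, 2 lower). Without mice 182 and 183 the count was 13 (8 higher, 5 lower), and leaving out 1 mouse gave 4 to 10. For KO visWAT, in place of 7, they were 11 with DESeq2 (5 higher, 6 lower) and 4 without KO NCD mouse 197 (3 higher, 1 lower). The range with 1 mouse left out was 4 to 10. For tissue by diet in WT mice, in place of 20, they were 13 (edgeR) and 12 (DESeq2), and leaving out 1 library gave 16 to 23. The cause was not tested. The liver counts stayed within 20 and 24 when 1 mouse was left out.

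With the mouse as a replicate block, 21 members were called in WT (Lss added) and 20 in KO mice (Ggps1 and Lbr lost) for tissue by diet, and the pairing changed no other call. The TPM scale moved the median of all genes by 0.34 in WT visWAT, where mouse 183 holds many seminal vesicle reads. On it Ggps1 (0.12), Srebf2 (0.42), Insig1 (0.34) and Insig2 (0.21) changed sign for diet, Srebf2 (0.34) for genotype on NCD and Scap (-0.075) for genotype on HFD. Srebf2 did so for genotype in HFD liver (-0.00177).

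Other changes of sign were in differences that passed in no fit. For diet in WT visWAT, Srebf2 ran from -0.059 to 0.12 and Insig1 from -0.64 to 0.52 with 1 mouse left out, and they were 0.10 and 0.55 without mice 182 and 183. For genotype in NCD visWAT, Srebf2 ran from -0.062 to 0.12 (0.10 without both) and Scap from -0.000124 to 0.082. In the visWAT interaction, Scap ran from -0.065 to 0.017, Insig1 from -0.024 to 1.14 (-0.055 without both) and Insig2 from -0.17 to 0.016 (0.062 without both). In liver, Insig1 for genotype on HFD ran from -0.19 to 0.10 (0.00228 with edgeR, 0.00299 with DESeq2), and Insig2 for genotype on NCD from -0.19 to 0.18 (-0.19 without both).

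Of the values of single members under an alternative, 1604 kept direction and side of the threshold, 65 lost and 15 gained the call, and 32 changed sign. With 4 or 5 mice a group, small differences cannot be told from the spread.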
